A study of Mus musculus with 12 samples.

Results

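The 7 genes described here, Uts2, Uts2b, Cartpt, Calca, Calcb, Nts and Sst, encode precursors of secreted peptides and were read by name from a table of 40912 gene IDs in mouse spinal cord RNA. All 7 passed the filter on low counts and are among the 15905 genes tested. They were selected on their rise in the Chat line pulldown of these same libraries over its input, so comparisons with that pulldown are given below as values with no test. Spinal cord at postnatal day 21 came from mice of 2 bacTRAP lines, in which a transgene makes ribosomal protein Rpl10a fused to EGFP, and pulling on EGFP brings down ribosomes together with the RNA they were translating. Tg(Chat-EGFP/Rpl10a)DW167Htz carries the tag in cells that use Chat sequences, which are cholinergic cells, and Tg(Snap25-EGFP/Rpl10a)JD362Jdd carries it in cells that use Snap25 sequences, which are neurons in general, motor neurons included. Each line gave 3 pulldown libraries (TRAP_Chat, TRAP_Snap25) and 3 libraries of RNA taken before the pulldown (PreIP_Chat, PreIP_Snap25, called inputs here). No untransgenic mouse and no treatment was part of the groups used here. The tag marks every cholinergic cell in which the Chat transgene works, so TRAP_Chat is not purely somatic motor neuron RNA. The input and the pulldown of a replicate share a code in the labels, whose meaning is not given. Whether each replicate was a different animal is not in the labels, and p-values cover the spread among the libraries at hand, which may be technical.

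Neuropeptides are made as long precursors that enter the secretory pathway, are cut by prohormone convertases, often amidated, and stored in dense-core vesicles until release, after which they act mostly on G protein-coupled receptors. Somatic motor neurons release acetylcholine at muscle and are known to carry such peptides beside it, calcitonin gene-related peptide (CGRP) being the one best known at the neuromuscular junction. Uts2 and Uts2b encode the vasoactive peptides urotensin II and urotensin II-related peptide, Cartpt encodes the CART peptides, Calca encodes calcitonin or alpha-CGRP according to splicing, Calcb encodes beta-CGRP, Nts encodes neurotensin and neuromedin N, and Sst encodes somatostatin. CGRP is also a peptide of primary sensory neurons, whose axons end in the dorsal horn, and Sst and Nts are peptides of dorsal horn interneurons.

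Total counts per library ran from 10149346 to 20521699, and levels are given in CPM, which are counts relative to the library total, after TMM scaling. A count of 3 in a library corresponded to between 0.146 and 0.296 CPM without that scaling. The smallest count of any of the 7 genes was that of Uts2b in PreIP_Chat replicate 1, at 23 reads. Chat, the acetylcholine-synthesizing enzyme, was at 106, 185 and 187 CPM in TRAP_Chat against 30.2, 20.3 and 16.1 CPM in PreIP_Chat, and at 20.0, 26.1 and 28.9 CPM in TRAP_Snap25. The marker lists used here were written with earlier results of these data known, so calls in them are not independent support. Of 10 markers of somatic motor neurons, all 10 rose from PreIP_Chat to TRAP_Chat by edgeR at an adjusted p under 0.05. That call was received by 12.6% of all genes tested, and the median of the 10 markers was 8.04-fold. All 8 inhibitory neuron markers and all 10 oligodendrocyte markers were lower there (14.3% of all genes were called lower). Of 10 dorsal horn excitatory markers, 1 was higher (12.6% of all genes) and 5 lower (14.3%) there, with a median of 0.378-fold. Their summed level was 114%, 113% and 101% of the input mean in TRAP_Chat replicates 1 to 3. Mitochondrial ribosomal RNA took 23.2% to 40.7% of the counts of the inputs and 0.209% to 6.67% of those of the pulldowns, with the highest pulldown value in TRAP_Chat replicate 1.

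The 2 CGRP genes share a stretch of coding sequence that bears on how their reads can be told apart. In the GENCODE M21 transcripts (GRCm38), the longest run common to the coding sequences of both genes, shown because a read inside it belongs to neither gene alone, had 61 bases.
Calca and Calcb shared coding run: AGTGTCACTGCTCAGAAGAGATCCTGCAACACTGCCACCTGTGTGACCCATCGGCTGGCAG
The capitals mark bases that are the same in both genes, and the run holds the codons for the start of the mature CGRP peptide. Over the whole transcripts, 12 windows of 50 bases were common to both genes, which is 0.715% of the windows of Calca and 0.952% of those of Calcb. Uts2 and Uts2b, although their peptides are alike, shared no window of 50 bases, and their longest common coding run had 8 bases. Counts per gene do not separate the calcitonin from the CGRP transcript of Calca. Uts2 lies inside an intron of Camta1 on the opposite strand, and no exon base of Uts2 was shared with an exon of Camta1. The strand setting of the counting is not given in the sources used here. Camta1, a transcription factor gene, was not called in TRAP_Chat against PreIP_Chat, where its log2 fold change was -0.27 ± 0.23 (edgeR, adjusted p = 0.405). Of the 8 genes that overlap or lie nearest to the 7, 5 were tested. None of the 5 was higher in TRAP_Chat (12.6% of all genes) or in TRAP_Snap25 (9.69%) than in its input. Lower were 2 in TRAP_Chat (14.3% of all genes), Per3 and Insc. In TRAP_Snap25 3 were lower (12.7% of all genes), namely Per3, Insc and Rassf9.

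Promoter sequence from RefSeq (GRCm38.p6, 250 bases before to 50 after the start) was on hand for 6 of the 7 genes and was searched on both strands for the cyclic AMP response element TGACGTCA, the shorter core TGACG, which lies within it, the TATA box TATAAA and the homeodomain palindrome TAATTA. The full element was found in Cartpt and Sst, whose promoters are shown because they share it while their levels in the pulldowns differ, as described below.
Cartpt, chr13:99900634-99900933, minus strand: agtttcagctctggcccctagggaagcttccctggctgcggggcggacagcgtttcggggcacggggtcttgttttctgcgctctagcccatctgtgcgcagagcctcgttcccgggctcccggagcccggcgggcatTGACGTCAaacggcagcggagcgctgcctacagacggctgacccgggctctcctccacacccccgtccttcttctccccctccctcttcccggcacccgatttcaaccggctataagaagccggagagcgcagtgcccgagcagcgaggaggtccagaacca
Sst, chr16:23890795-23891094, minus strand: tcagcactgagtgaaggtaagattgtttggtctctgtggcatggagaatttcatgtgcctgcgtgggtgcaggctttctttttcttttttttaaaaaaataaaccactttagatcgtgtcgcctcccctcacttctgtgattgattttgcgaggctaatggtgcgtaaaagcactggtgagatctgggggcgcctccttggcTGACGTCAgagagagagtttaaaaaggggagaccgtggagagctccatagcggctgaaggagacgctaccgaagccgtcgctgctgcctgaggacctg
The capitals mark the element, which starts at -112 in Cartpt and at -48 in Sst relative to the start. It was present in 1.79% of 32851 promoters of the same length. The core stood also in Calca, from -65, and, on the minus strand, in Nts, from -166, and was present in 20.8% of promoters. TATAAA stood in Uts2, from -225, and in Uts2b, from -56, and in 13.6% of promoters. TAATTA, present in 5.29% of promoters, stood in 0 of the 6. These matches describe the letters of these windows and nothing more.

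Of the urotensin genes, Uts2 had the lowest input level of the 7 relative to its Chat pulldown. It was at 129.6, 175 and 72.1 CPM in TRAP_Chat replicates 1, 2 and 3, against 6.53, 4.82 and 3.12 CPM in PreIP_Chat. In the Snap25 line it was at 21.2, 28.7 and 16.5 CPM in TRAP_Snap25 and at 5.22, 2.33 and 6.52 CPM in PreIP_Snap25. Every TRAP_Chat library lay above every TRAP_Snap25 library, and these lay above all 6 inputs. Among the 7 genes Uts2 also had the widest spread in TRAP_Chat, with a mean of 126 ± 51.5 CPM (SD, n = 3). Its replicate 3 stood at 57.4% of that mean and its replicate 2 at 139%. All 7 genes had every TRAP_Chat library above every PreIP_Chat library, which 21.8% of all genes had, a share from which nothing is read since TRAP_Chat chose the genes. Uts2 had the largest log2 fold change of the 7 from input to Chat pulldown, 4.70 ± 0.44 (SE), or 26.0-fold, and ranked 21 of 15905 genes there. Without TRAP_Chat replicate 2 the value was 4.44 and without replicate 3 it was 4.98.

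Uts2b was the least abundant of the 7 in CPM but varied little between replicates of TRAP_Chat, with an SD of 9.35% of the mean. In PreIP_Chat, PreIP_Snap25 and TRAP_Snap25 the SD was 22.3%, 25.5% and 24.7% of the mean. It was at 27.5, 23.6 and 28.3 CPM in TRAP_Chat and at 1.40, 1.66 and 2.17 CPM in PreIP_Chat. It was at 6.54, 4.47 and 4.27 CPM in TRAP_Snap25 and at 1.98, 1.75 and 2.80 CPM in PreIP_Snap25. The same order of groups held as for Uts2, with no overlap between TRAP_Chat, TRAP_Snap25 and the inputs. The Chat pulldown exceeded its input by 3.91 ± 0.38 on the log2 scale, or 15.1-fold.

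Cartpt was at 267, 179.9 and 206 CPM in TRAP_Chat and at 12.1, 13.9 and 15.7 CPM in PreIP_Chat. It was at 28.7, 46.0 and 35.0 CPM in TRAP_Snap25 and at 7.80, 7.12 and 17.7 CPM in PreIP_Snap25. Groups were again fully separated, with PreIP_Snap25 replicate 3 the highest input. The Chat pulldown exceeded its input by 3.97 ± 0.35 on the log2 scale, or 15.6-fold.

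The 2 CGRP genes followed each other closely, with Calca the more abundant in every library. Calca was at 260.5, 262 and 317 CPM in TRAP_Chat and at 23.1, 20.2 and 18.3 CPM in PreIP_Chat, while TRAP_Snap25 held 51.1, 60.2 and 90.4 CPM and PreIP_Snap25 15.6, 17.4 and 40.4 CPM. Calcb was at 82.6, 133 and 87.3 CPM in TRAP_Chat and at 7.75, 7.53 and 5.03 CPM in PreIP_Chat, while TRAP_Snap25 held 19.0, 18.8 and 34.2 CPM and PreIP_Snap25 6.65, 4.40 and 13.8 CPM. For both genes TRAP_Chat lay above TRAP_Snap25 and TRAP_Snap25 above the inputs, and within the Snap25 line replicate 3 was the highest library of the pulldown and of the input. The changes from input to Chat pulldown were near each other, with log2 fold changes of 3.77 ± 0.35 for Calca (13.6-fold) and 3.90 ± 0.41 for Calcb (14.9-fold).

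Because CGRP is also a sensory neuron peptide, markers of primary sensory neurons were read in the same libraries. Their sum over 8 genes was 22.0 CPM in TRAP_Chat replicate 2 against 3.52 and 4.58 CPM in replicates 1 and 3, and 11.5 CPM in PreIP_Chat replicate 2 against 1.53 and 2.17 CPM in the other inputs of that line. Scn10a, a sodium channel gene of nociceptors, had 97 reads in TRAP_Chat replicate 2 and 0 in replicates 1 and 3. Scn11a, another such channel gene, had 50, 0 and 0 reads in replicates 2, 1 and 3, and 6 of the 8 markers were at 0 in replicate 1 and 4 in replicate 3. Of the 8 markers, 4 were tested. From PreIP_Chat to TRAP_Chat all 4 had log2 fold changes above 0, with a median of 2.27-fold, and 0 were called higher (12.6% of all genes). Against TRAP_Snap25 all 4 were also above 0, with a median of 4.88-fold, and 0 were called higher (3.97%). The TRAP_Chat libraries with 0 reads of Scn10a held 260.5 and 317 CPM of Calca and 82.6 and 87.3 CPM of Calcb. In the same 2 libraries the 8 markers summed to 3.52 and 4.58 CPM. Without replicate 2 the log2 fold change from input to Chat pulldown was 3.86 for Calca and 3.70 for Calcb. Calcb was highest in that replicate. The part of sensory RNA in the levels of Calca and Calcb was not tested in any library.

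Nts was at 43.1, 23.2 and 37.4 CPM in TRAP_Chat and at 6.66, 8.19 and 8.99 CPM in PreIP_Chat. It was at 12.5, 8.99 and 11.4 CPM in TRAP_Snap25 and at 7.26, 10.2 and 19.1 CPM in PreIP_Snap25. Only TRAP_Chat stood apart among its 4 groups, since the Snap25 pulldown overlapped both inputs. The change from input to Chat pulldown was 2.12 ± 0.37 on the log2 scale, or 4.34-fold.

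Sst was the most abundant of the 7 in every library but did not follow the others. It was at 542, 449 and 498 CPM in TRAP_Chat and at 264, 198 and 199 CPM in PreIP_Chat. It was at 463, 504 and 1037 CPM in TRAP_Snap25 and at 186, 279 and 282 CPM in PreIP_Snap25. Both pulldowns lay above all inputs, and the pulldowns overlapped each other. The change from input to Chat pulldown was 1.17 ± 0.30 on the log2 scale, or 2.25-fold, a value that 89.8% of all genes did not exceed. Against TRAP_Snap25 the Chat pulldown was at -0.43 ± 0.29 on the log2 scale. By these levels, with no test, the libraries do not show Sst as enriched in RNA of cholinergic cells over RNA of neurons in general. The other 6 genes had higher levels in TRAP_Chat in that comparison.

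**Figure D1:**
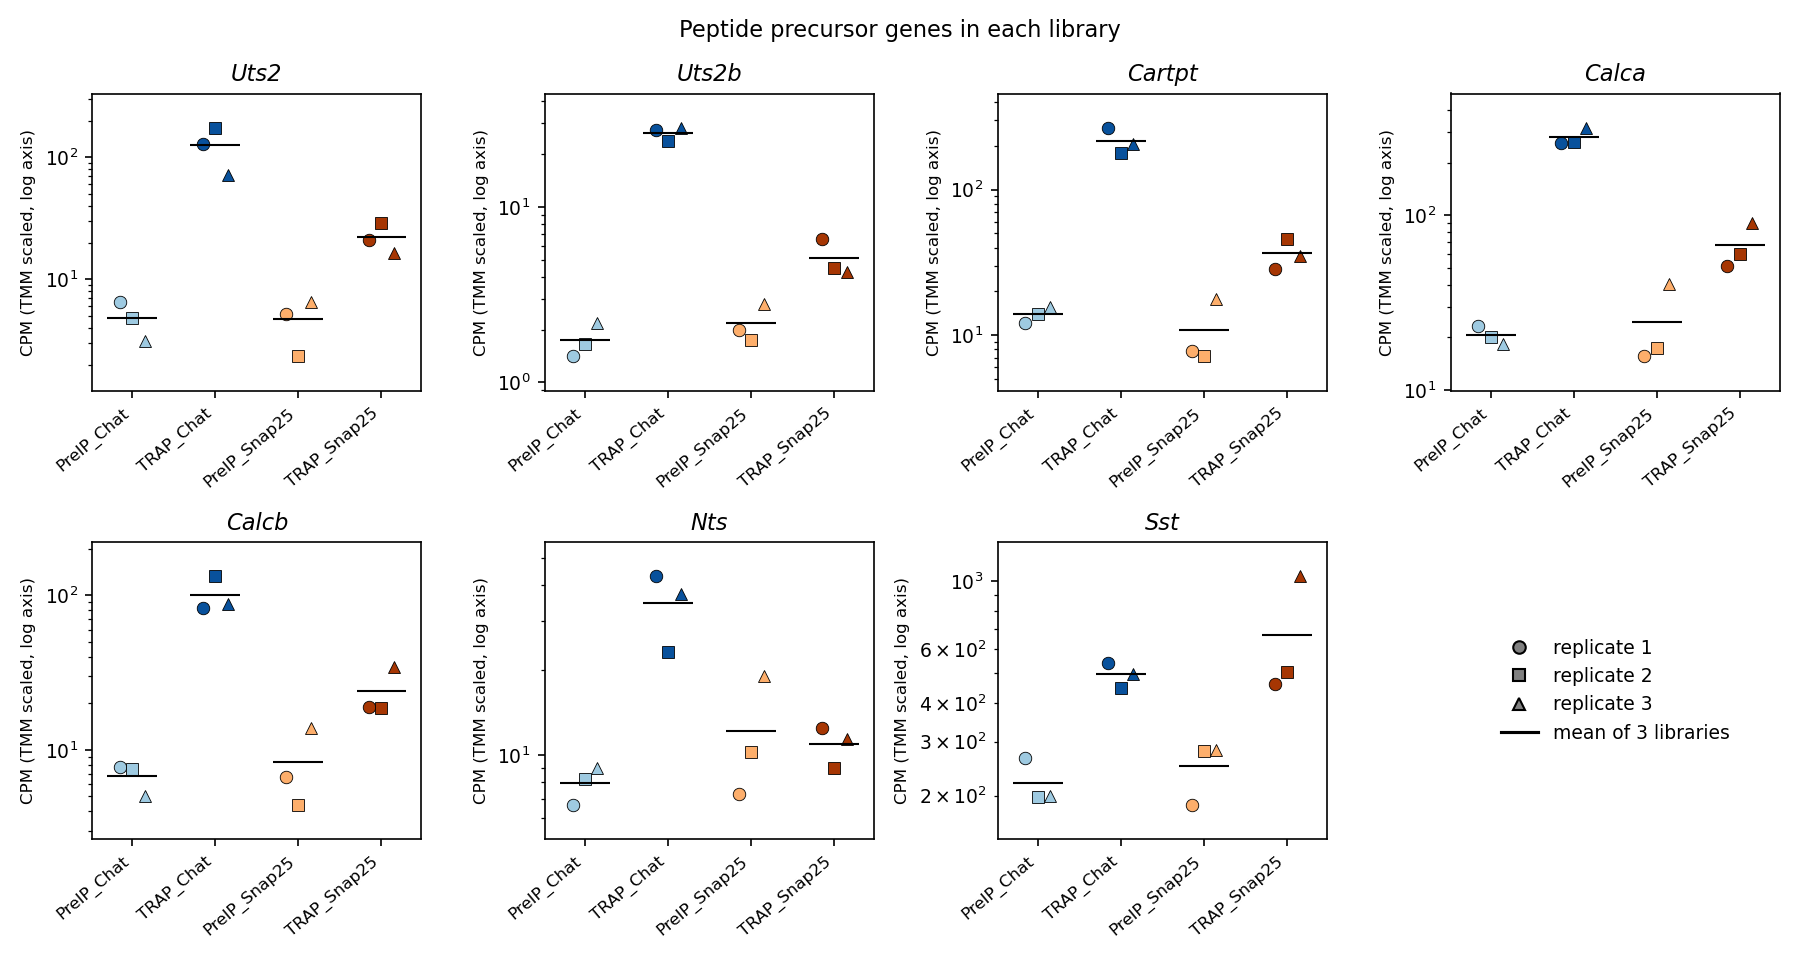
Level of each of the 7 peptide genes in each of the 12 libraries, in CPM after TMM scaling on a log axis that differs between panels, with marker shapes for replicates and a line for the mean of 3 libraries. TRAP_Chat stands above all other groups for every gene but Sst, whose TRAP_Chat libraries (449 to 542 CPM) overlap those of TRAP_Snap25 (463 to 1037 CPM).

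Exon length here joins all annotated exons of a gene, 1684 bases over 7 transcripts for Calca against 538 bases and 1 transcript for Uts2. Where the transcripts made do not hold all these exons, the level per length is understated. Read per kilobase of exon (GENCODE M21), Sst was the highest of the 7 genes in TRAP_Chat at 689 ± 64.1 CPM per kb (SD, n = 3). Uts2 (233 ± 95.8), Cartpt (170.2 ± 35.0) and Calca (166 ± 19.1) followed at levels that did not differ beyond their spread. Calcb came next at 79.8 ± 21.9 CPM per kb. Uts2b (31.7 ± 2.96) and Nts (27.7 ± 8.20) were lowest and did not differ from each other beyond their spread. In PreIP_Chat the order was Sst at 306 ± 52.9 CPM per kb, then Calca (12.2 ± 1.45), Cartpt (10.9 ± 1.40), Uts2 (8.97 ± 3.17), Nts (6.37 ± 0.952), Calcb (5.36 ± 1.20) and Uts2b (2.09 ± 0.466), where neighbours from Calca to Calcb did not differ beyond their spread. Uts2, which stood below Calca and Cartpt in the input, thus had the higher mean per length in the pulldown, and Nts stood last there. In TRAP_Snap25 the levels were 927 ± 444 CPM per kb for Sst, 41.1 ± 11.5 for Uts2, 39.9 ± 12.2 for Calca, 28.6 ± 6.87 for Cartpt, 19.0 ± 6.98 for Calcb, 8.78 ± 1.44 for Nts and 6.10 ± 1.50 for Uts2b, and those of Uts2, Calca and Cartpt did not differ beyond their spread. In PreIP_Snap25 they were 346 ± 75.5 for Sst, 14.5 ± 8.23 for Calca, 9.77 ± 4.94 for Nts, 8.72 ± 3.98 for Uts2, 8.51 ± 4.62 for Cartpt, 6.56 ± 3.89 for Calcb and 2.61 ± 0.664 for Uts2b, and from Calca to Calcb no neighbours differed beyond their spread.

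In the Snap25 line, whose libraries were not part of the contrast the genes were selected on, the change from input to pulldown was tested. Results of the Snap25 line, the large rise of Uts2 among them, were already known when the genes were selected, so these tests are not independent support. 6 of the 7 genes were higher in TRAP_Snap25 than in PreIP_Snap25 (edgeR's quasi-likelihood test, Benjamini-Hochberg over all genes, threshold 0.05), where 9.69% of all genes were called higher. The same 6 had every pulldown library above every input library of the line, as had 16.6% of all genes. The median log2 fold change was 1.46 for the 7 genes and -0.00 for all genes. Uts2 rose by 2.24 ± 0.40 on the log2 scale (SE; edgeR, adjusted p = 0.00141) and ranked 57 of all genes. Cartpt rose by 1.75 ± 0.32, or 3.37-fold (edgeR, adjusted p = 0.00164), and had replicates at 28.7 to 46.0 CPM against 7.12 to 17.7 CPM. The CGRP genes rose to a like extent, Calca 2.75-fold (edgeR, adjusted p = 0.00509) and Calcb 2.89-fold (edgeR, adjusted p = 0.00973). Sst rose 2.68-fold (edgeR, adjusted p = 0.00357), and without TRAP_Snap25 replicate 3, its highest library, the log2 fold change went from 1.42 to 0.95 (edgeR, adjusted p = 0.00857). Uts2b rose 2.34-fold (edgeR, adjusted p = 0.0208).

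Of these 6 calls, those of Uts2b and Calcb depended on single libraries. Without PreIP_Snap25 replicate 1 or replicate 2 the number of genes called was 4 each time. Uts2b had a log2 fold change of 1.15 without PreIP_Snap25 replicate 1 (edgeR, adjusted p = 0.0785) and 1.08 without PreIP_Snap25 replicate 2 (edgeR, adjusted p = 0.0908), and was not called without TRAP_Snap25 replicate 1 (edgeR, adjusted p = 0.0730). For Calcb the values were 1.38 without PreIP_Snap25 replicate 1 (edgeR, adjusted p = 0.0533) and 1.22 without PreIP_Snap25 replicate 2 (edgeR, adjusted p = 0.0527). Nts was not called, at -0.15 ± 0.36 on the log2 scale (95% interval -0.85 to 0.54; edgeR, adjusted p = 0.799), and its value was 0.32 without PreIP_Snap25 replicate 3, where its input level was highest (edgeR, adjusted p = 0.579).

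Marker lists moved in the Snap25 line as well, and their part in the changes of the peptide genes was not tested. The summed level of the 10 somatic motor neuron markers was 151%, 149% and 234% of the mean of the input in TRAP_Snap25 replicates 1 to 3. Of these 10 markers, 3 were called higher (9.69% of all genes were). The summed level of the 10 dorsal horn excitatory markers was 159.9%, 157% and 221%, with a median of 1.11-fold. In that list 3 of 10 were called higher (9.69% of all genes) and 0 lower (12.7%). Cck, which stands in that list, made up 153 to 346 CPM of sums of 441 to 621 CPM. Oligodendrocyte markers fell to 11.5%, 9.04% and 27.2%, with 10 of 10 called lower (12.7% of all genes). Replicate 3 was thus the highest in all 3 lists, and it was also the highest library for Sst, Calca and Calcb. In bulk RNA of this kind, more cells of a type and more RNA per cell cannot be told apart.

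**Figure D2:**
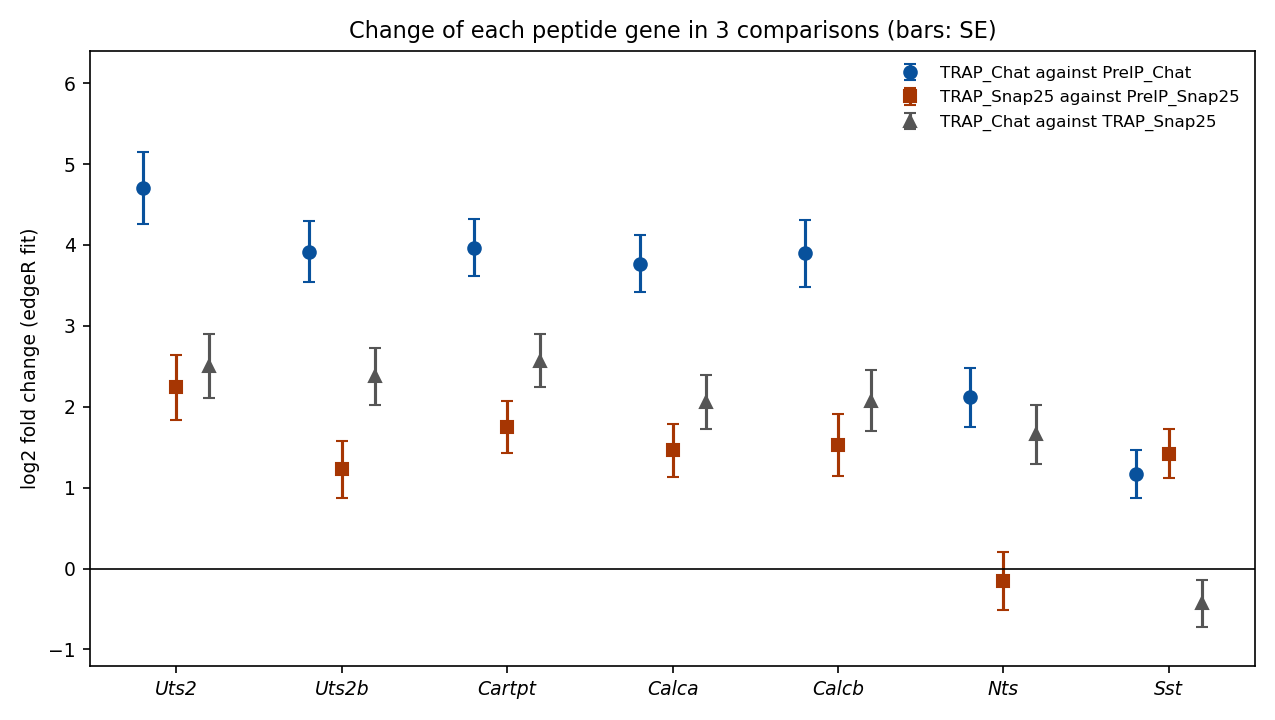
Log2 fold change of each peptide gene with a standard error derived from the edgeR test statistic. Shown are the Chat pulldown against its input, the Snap25 pulldown against its input, and the Chat against the Snap25 pulldown. The Chat values run from 1.17 (Sst) to 4.70 (Uts2) and the Snap25 values from -0.15 (Nts) to 2.24 (Uts2), and comparisons that share a group are not independent of each other.

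Set side by side, the pulldowns of the 2 lines differed in the same direction for 6 of the 7 genes. TRAP_Chat exceeded TRAP_Snap25 by 2.57 ± 0.33 on the log2 scale for Cartpt (5.94-fold), 2.50 ± 0.40 for Uts2 (5.66-fold), 2.38 ± 0.35 for Uts2b (5.19-fold), 2.08 ± 0.38 for Calcb (4.22-fold), 2.06 ± 0.33 for Calca (4.17-fold) and 1.66 ± 0.36 for Nts (3.16-fold). Libraries of the 2 groups did not overlap for these 6 genes, where 10.3% of all genes had TRAP_Chat wholly above TRAP_Snap25, a share from which nothing is read since TRAP_Chat chose the genes. Chat itself differed by 2.67 ± 0.30 (edgeR, adjusted p = 0.000100), and the 10 somatic motor neuron markers by a median of 2.52. For Sst the value of -0.43 became 0.04 without TRAP_Snap25 replicate 3, which held 1037 CPM.

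The change from input to pulldown was larger in the Chat than in the Snap25 line by 2.22 to 2.69 on the log2 scale for Uts2, Uts2b, Cartpt, Calca, Calcb and Nts. The highest of these was Uts2b, at 2.69 ± 0.50, and the lowest Cartpt, at 2.22 ± 0.45. For Sst the difference was -0.25 ± 0.41. These differences rest in part on PreIP_Snap25 replicate 3, without which they were 1.68 for Cartpt, 1.74 for Calca, 1.79 for Calcb and 1.80 for Nts. The Sst difference turned to 0.22 without TRAP_Snap25 replicate 3.

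The inputs of the 2 lines, in which no ribosomes were selected, gave no call, and PreIP_Chat was part of the contrast the genes were selected on. 0 of the 7 genes and 0% of all genes were called between PreIP_Chat and PreIP_Snap25 (edgeR, adjusted p = 0.9998 for each of the 7), while 133 of 15905 genes had an unadjusted p under 0.05. DESeq2 called 1 gene and limma voom 0. The widest difference among the 7 was that of Nts, -0.61 ± 0.36 on the log2 scale (95% interval -1.31 to 0.08), and that of Uts2 was 0.04 ± 0.40 (95% interval -0.75 to 0.82). PreIP_Snap25 replicate 3 had the highest level of Cartpt, Calca, Calcb, Nts, Uts2b and Sst of all 6 inputs, and of Uts2 within its line.

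Within TRAP_Chat the 3 libraries ranked the genes differently. Replicate 2, which had the highest sum of somatic motor neuron markers (863% of the input mean, against 530% and 718% in replicates 1 and 3) and the lowest of oligodendrocyte markers (12.6%, against 29.3% and 17.5%), was highest for Uts2 and Calcb and lowest for Uts2b, Cartpt, Nts and Sst. Nts in that library stood at 67.1% of the group mean and Cartpt at 82.8%. Inhibitory markers were also lowest there, at 15.5% of the input mean against 27.0% and 31.0%. Markers of visceral motor neurons were at 43.6% there against 89.8% and 77.5%, and those of neurons that contact the cerebrospinal fluid summed to 2.55 to 3.21 CPM in all 3 libraries. How far such differences in makeup bear on the 7 genes was not tested.

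**Figure D3:**
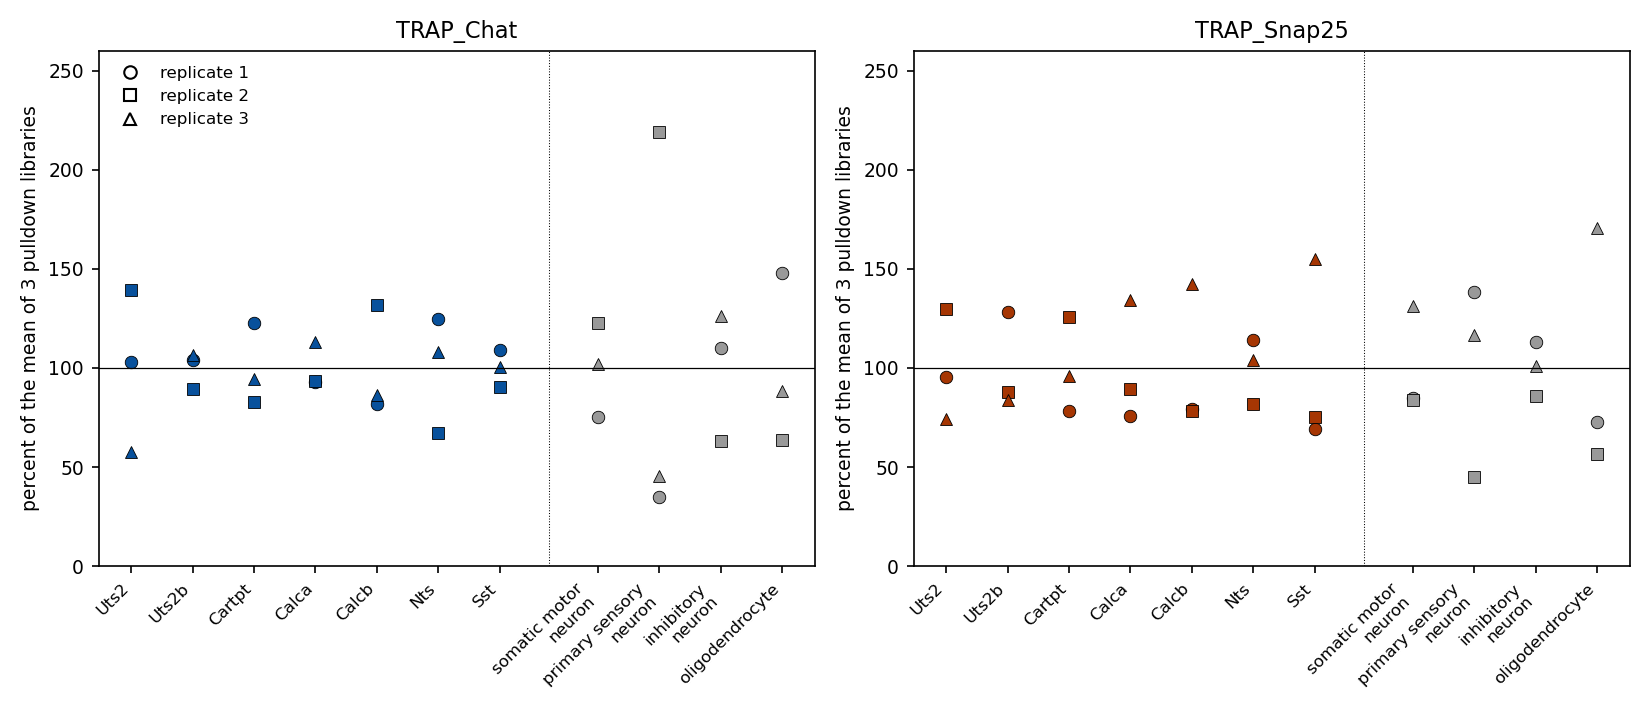
Level of each peptide gene and the summed level of 4 marker lists in each pulldown library, in percent of the mean of the 3 libraries of its group, for TRAP_Chat (left) and TRAP_Snap25 (right). Replicate 2 of TRAP_Chat is high for Uts2 (139%) and Calcb (132%) and low for Nts (67.1%), and replicate 3 of TRAP_Snap25 is high for Sst (155%), Calcb (142%) and Calca (134%).

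Other peptide precursors were called in both directions in the Chat pulldown. Of 63 listed precursors, 29 were tested, and from PreIP_Chat to TRAP_Chat their median on the log2 scale was -0.81, where that of all genes was -0.06. In that comparison 3 were higher (12.6% of all genes) and 9 lower (14.3%). Cck, the precursor of cholecystokinin, was 2.12-fold higher (edgeR, adjusted p = 0.0151), with 186, 189.7 and 167 CPM against 101, 80.1 and 74.1 CPM. That call was lost without PreIP_Chat replicate 2 (edgeR, adjusted p = 0.0621) and without replicate 3 (edgeR, adjusted p = 0.0690). Edn2, an endothelin precursor, had 100, 13 and 32 reads in TRAP_Chat against 1, 0 and 0 in PreIP_Chat (edgeR, adjusted p = 0.00668). Npy, the neuropeptide Y precursor of inhibitory and other interneurons, was 10.3-fold lower (edgeR, adjusted p = 0.000539), with 1.54, 0.151 and 0.989 CPM in TRAP_Chat against 9.65, 11.1 and 7.83 CPM in PreIP_Chat. Nppc (C-type natriuretic peptide, 5.25-fold), Agt (angiotensinogen, an astrocyte product, 4.28-fold) and Apln (apelin, 3.94-fold) were also lower. Apln had an adjusted p of 0.122 without TRAP_Chat replicate 2 (edgeR), and its call was also lost without TRAP_Chat replicate 3 (0.116) and without PreIP_Chat replicates 1 (0.0794), 2 (0.0568) and 3 (0.0721). The number of precursors called lower was 5 without PreIP_Chat replicate 1, without PreIP_Chat replicate 2 or without TRAP_Chat replicate 2.

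In the Snap25 line 3 of the 29 precursors were higher (9.69% of all genes) and 3 lower (12.7%), and the median on the log2 scale was 0.36. Cck rose 2.97-fold (edgeR, adjusted p = 0.00242) and Penk, the enkephalin precursor, 2.11-fold (edgeR, adjusted p = 0.00436). Penk was at 227, 276 and 375 CPM in TRAP_Snap25 and at 112 to 132 CPM in TRAP_Chat. Agt fell 5.55-fold and Apln 5.82-fold, and Edn3, an endothelin precursor, had 2, 0 and 0 reads in the pulldown against 48, 14 and 43 in the input. Between the pulldowns, 0 of the 29 were higher in TRAP_Chat (3.97% of all genes) and 7 lower (2.77%). Among them Npy was 20.5-fold lower, Nppc 7.10-fold (edgeR, adjusted p = 0.0145; 0.0546 without TRAP_Chat replicate 3) and Adm, the adrenomedullin precursor, 7.74-fold (edgeR, adjusted p = 0.0407). The Adm call was lost without any 1 of 10 libraries, with adjusted p-values of 0.0503 to 0.0981. Trh, the thyrotropin-releasing hormone precursor, had 0, 0 and 1 reads in TRAP_Chat against 10, 25 and 60 in TRAP_Snap25. In the difference between the lines 0 of the 29 were higher (0.604% of all genes) and 1 was lower (0.440%), which was Npy. Npy stands also in the list of inhibitory markers, and Cck and Tac1 in that of dorsal horn neurons.

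**Figure D4:**
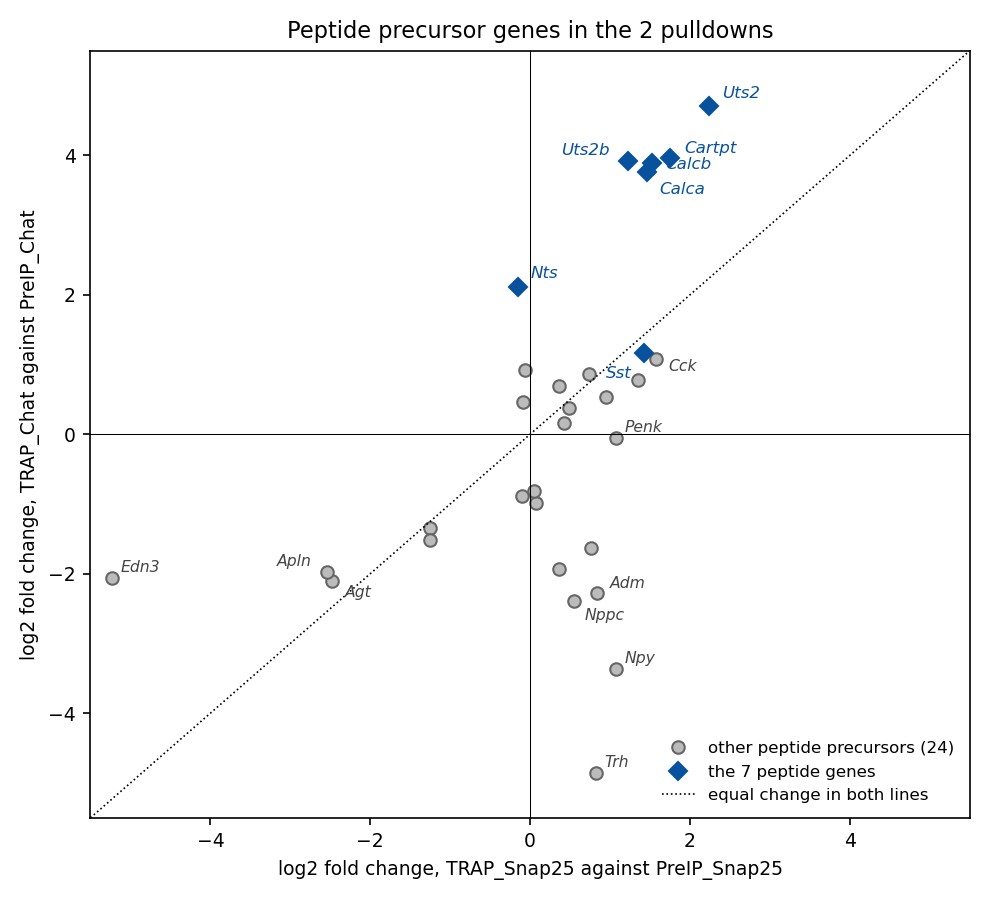
Log2 fold change from input to pulldown in the Snap25 line (horizontal) and in the Chat line (vertical) for the 7 peptide genes and for the 24 other tested precursors whose mean over all libraries reached 1 CPM. Uts2, Uts2b, Cartpt, Calca, Calcb and Nts lie above the line of equal change while Sst lies on it beside Cck, and the values of Edn3 and Trh come from groups with few or no reads.

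The machinery that cuts, amidates and packs such precursors had no member called higher in the Chat pulldown. Of 19 processing enzymes and granins, all tested, 2 were lower (14.3% of all genes) and 0 higher (12.6%) in TRAP_Chat relative to its input, and their median on the log2 scale was 0.01. The 2 were the convertase Pcsk6 (2.69-fold lower; edgeR, adjusted p = 0.0289) and the carboxypeptidase Cpd (2.42-fold lower; edgeR, adjusted p = 0.0118). The number lower was 0 without PreIP_Chat replicate 3 and 1 without PreIP_Chat replicate 1, PreIP_Chat replicate 2, TRAP_Chat replicate 1 or TRAP_Chat replicate 2. In the Snap25 line 5 of 19 were higher (9.69% of all genes) and 1 lower (12.7%). Scg5, the chaperone of the convertase PC2, rose 2.35-fold (edgeR, adjusted p = 0.00429), Pcsk1n, an inhibitor of the convertase PC1, 2.24-fold (edgeR, adjusted p = 0.00724), Pam, the amidating enzyme, 1.73-fold (edgeR, adjusted p = 0.0203) and the granin Scg2 1.70-fold (edgeR, adjusted p = 0.0174). That number was 2 without PreIP_Snap25 replicate 1 or TRAP_Snap25 replicate 2 and 3 without PreIP_Snap25 replicate 2, and the calls of Pam (without any of these 3) and Scg2 (without the first or the second) were among those lost. Between the pulldowns Scg5, Scg2 and Pam were lower in TRAP_Chat (3 of 19, against 2.77% of all genes), Scg5 by 3.78-fold (edgeR, adjusted p = 0.000382), with 48.3, 43.0 and 67.8 CPM against 177, 196 and 228 CPM. The number lower was 1 without TRAP_Snap25 replicate 2, and Pam also lost its call without TRAP_Chat replicate 1 (edgeR, adjusted p = 0.0583) or replicate 3 (edgeR, adjusted p = 0.0722).

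Of 14 genes for receptors of these peptides and their partners, 12 were tested. Ramp2, an accessory protein of the calcitonin receptor-like receptor, was the 1 gene of these called higher from PreIP_Chat to TRAP_Chat (12.6% of all genes were), 3.57-fold (edgeR, adjusted p = 0.000864), with 30.4, 23.8 and 23.5 CPM against 7.94, 8.14 and 5.66 CPM. It was also 2.80-fold higher than in TRAP_Snap25 (edgeR, adjusted p = 0.0107), where it was at 10.8, 7.09 and 9.87 CPM. Calcrl, the receptor gene with which it pairs, was 3.39-fold lower in TRAP_Chat than in its input (edgeR, adjusted p = 0.0170), and that call was lost without PreIP_Chat replicate 2 (0.0680), TRAP_Chat replicate 2 (0.0659) or TRAP_Chat replicate 3 (0.0633). Ntsr2, a neurotensin receptor gene, was 4.55-fold lower there (edgeR, adjusted p = 0.000939), and Sort1, the sorting receptor that also binds neurotensin, 1.52-fold (edgeR, adjusted p = 0.0406; not called without any 1 of the 6 Chat line libraries, 0.0569 to 0.113). In all 4 of the 12 were lower in TRAP_Chat (14.3% of all genes), and between 1 and 2 when any 1 of those 6 libraries was left out. Ramp1, listed here too, was not called in TRAP_Chat against PreIP_Chat under any of 20 other settings (log2 fold change -0.52 to -0.03). With Calcrl lower and Ramp1 not called, the rise of Ramp2 is not read as a rise of a receptor of these peptides. In the Snap25 line 0 were higher (9.69% of all genes) and 3 lower (12.7%), namely Ntsr2 (7.63-fold; edgeR, adjusted p = 0.000257), Ramp1 (4.46-fold; edgeR, adjusted p = 0.00417) and Calcrl (2.92-fold; edgeR, adjusted p = 0.0366). The Calcrl call there was lost without any 1 of 7 libraries, namely all 3 of PreIP_Snap25, TRAP_Snap25 replicates 2 and 3 and PreIP_Chat replicates 2 and 3 (edgeR, adjusted p = 0.0535 to 0.109). Uts2r, the urotensin receptor gene, stood at 0.370 to 1.10 CPM as group means.

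As a description of likeness, the log2 CPM of the 7 genes were correlated over the 12 libraries, which share the 4 groups and the pulldown step. Among Uts2, Uts2b, Cartpt, Calca and Calcb Pearson's r ran from 0.947 to 0.986, with the highest value between Calca and Calcb. Nts had r of 0.772 to 0.899 with these 5, and Sst 0.615 to 0.739, with 0.482 between Nts and Sst. Other genes compared were 10088 protein-coding genes whose mean reached 5 CPM, with predicted genes and pseudogenes left out. Among them Arl16 was most like Uts2 (r = 0.989), Hebp2 most like Uts2b (0.987) and Gyg most like Cartpt (0.981). Sncg was most like Calcb (0.987), Aamdc most like Nts (0.935) and Tomm22 most like Sst (0.962). Chodl, a marker of fast motor neurons, was the third for Uts2b (0.983), Rasl10a was among the top 3 of both Cartpt (0.979) and Calca (0.986), and Sncg, which encodes gamma-synuclein, was also in the top 3 of Calca (0.982). Ramp2 was the second for Nts (0.930).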

How the data were processed

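The deposited table holds the authors' whole-number read counts per Ensembl gene. Per the submitters' processing notes, STAR and HTSeq were used. The sources used here give no version, genome build, annotation or strand setting. RNA was amplified with the Ovation RNA-Seq System V2, per the labels' protocols. Of 41736 lines, 824 exact repeats were dropped. Groups came from the sample titles. In edgeR 4.0.16 (R 4.3.3), filterByExpr kept 15905 genes, TMM gave the scaling, and 1 mean per group was fitted over all 12 libraries (glmQLFit, glmQLFTest, two-sided, Benjamini-Hochberg over all tested genes, threshold 0.05). CPM are TMM-scaled. The 7 genes, the lists and the tests were chosen with earlier results of these data known, and the 7 genes have no p-value in comparisons that use TRAP_Chat. Other genes named are list members past the threshold with at least 1 CPM and no overlap of replicates, up to 4 per direction, the 3 genes most like each of the 7, and neighbours. Some of these, among them the gene most like Calca, are not reported here. Likeness used log2 CPM with a prior count of 2. No replicate pair was a repeat of 1 library. Alternatives used DESeq2 1.42.0 and limma 3.58.1, among others. The pipeline was tested on simulated data. RefSeq promoters (GRCm38.p6) and GENCODE M21 gave sequences, exon lengths and neighbours. Protein sequences were not used here.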

Additional observations from a re-analysis of the deposited data

Results flagged for a closer look

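Chat and the other precursor, processing and receptor genes named above were searched for a pulldown over input that differed by line. For 2 of them a test of that difference itself passed the threshold, with 3 libraries in each of the 4 groups. Other genes named in the text were not part of this search, and the 7 peptide genes have no p-value in that test. Among the marker lists, 5 of 10 somatic motor neuron markers were called higher in that test and 7 of 8 inhibitory markers lower. Chat served as a check of the lines, since the tag of the Chat line is in cells that use Chat sequences. For Chat the change was larger in the Chat than in the Snap25 line, by 2.21 ± 0.41 on the log2 scale (SE; edgeR, adjusted p = 0.0130). Its pulldown over input was 7.18-fold in the Chat line and 1.55-fold in the Snap25 line. For Npy the difference was -4.45 ± 0.74 (SE; edgeR, adjusted p = 0.00855), and Npy was 10.3-fold lower in the Chat pulldown than in its input.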

How the results depend on the processing

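Each result was recomputed under 20 other settings (19 for the difference between the lines, whose fit already uses all 12 libraries). Of 693 values for the 7 genes under these settings, 677 were counted as kept and 16 were not. A tested value was kept if it stayed on its side of the threshold, and an untested one if it moved by less than the spread. Values not called in either fit were kept even where their direction turned. Without PreIP_Snap25 replicate 3, Nts turned from -0.15 to 0.32 in the Snap25 line, and Calca from -0.25 to 0.32 between the inputs. No call of the 7 genes was made between the inputs, so none could be lost there. Of those with no test, the median of the 7 genes for the difference between the lines moved from 2.31 to 1.79 without PreIP_Snap25 replicate 3 (1.79 to 2.50 over single libraries left out). The number of the 7 genes called in the Snap25 line was 4 to 6 over all settings, and Uts2b also lost its call with limma voom (adjusted p = 0.0550), with no filter on low counts (0.0549 by edgeR) and in a fit of only the groups compared (0.106 by edgeR); the cause was not tested.
With only the groups compared fitted, 5 other precursors were higher in the Chat line, 3 were lower between the pulldowns, 2 processing genes were higher in the Snap25 line and 1 was lower between the pulldowns. With no filter on low counts, 5 precursors and 3 processing genes were higher in the Snap25 line, 1 precursor and 2 receptors were higher between the pulldowns, and in the difference between the lines 1 precursor and 1 receptor were higher and 3 precursors and 1 processing gene lower. DESeq2 gave 1 precursor and 2 receptors higher between the pulldowns, and in the difference between the lines 4 precursors and 1 processing gene lower and 1 receptor higher. Limma voom gave 1 precursor higher between the pulldowns and 1 processing gene lower in the difference between the lines, and 1 was also lower there when genes needed 1 CPM in 3 libraries. Without TRAP_Chat replicate 1 and TRAP_Snap25 replicate 3 together, a setting chosen after seeing the data, precursors gave 1 higher between the pulldowns and 1 higher and 2 lower in the difference between the lines, and processing genes 1 higher and 5 lower between the pulldowns.
Over single libraries left out, other precursors had 5 to 10 lower in the Chat line, 0 to 2 higher between the pulldowns and, in the difference between the lines, 0 to 1 higher and 1 to 2 lower. Processing genes had 0 to 2 lower in the Chat line, 2 to 5 higher and 1 to 2 lower in the Snap25 line, 1 to 3 lower between the pulldowns and 0 to 1 lower in the difference between the lines. Receptors had 1 to 4 lower in the Chat line and 1 to 2 higher between the pulldowns. The cause of these moves was not tested.
Within a line, the input and pulldown of the same number also share a code in the labels, whose meaning is not given, and pairing was checked. Deviations from the group means in same-numbered input and pulldown libraries had correlations of 0.06, 0.10 and 0.13 in the Chat line and -0.04, 0.17 and 0.15 in the Snap25 line, where each pair would need over 0.10 to be taken as paired from the data. In the Chat line every input correlated best with the pulldown of its own number, in the Snap25 line not every one did, and both libraries of Chat replicate 2 had the highest sums of sensory markers of their groups. Whether the numbers pair animals is thus not settled. A replicate block was also fitted. For comparisons of the pulldowns or of the inputs it joined libraries of the same number across the lines, though no label links these. The replicate block changed no call of the 7 genes. With it, the number of the 7 genes called was 6 in the Snap25 line and 0 between the inputs, their median was 3.89 in the Chat line, 2.13 between the pulldowns and 2.21 for the difference between the lines, and 1 processing gene was lower in that difference.
Genes with counts near 0 in a group, such as Edn2, Edn3 and Trh, were given as reads, since few counts leave their fold changes imprecise.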
